A study of Mus musculus with 15 samples.

Results

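The subject is LSZ4, a mouse non-small cell lung cancer line, after knockdown of Siva with short hairpin RNAs, which direct the cell to degrade a matching transcript. The arrays were chosen by title, and 8 of the 15 arrays of the study were from LSZ4. Of these, 4 came from cells with a Siva hairpin in the pLKO TRC2.0 vector, with 2 arrays of shSiva1 and 2 of shSiva2, and 4 came from control cells, with 2 arrays of shGFP in pLKO.1 and 2 of shLacZ in LL37. The controls target genes that mouse cells do not carry. The other 7 arrays were from a second line, LSZ2, and serve here only to test whether the response of LSZ4 differed. All cells were infected with virus, puromycin selection lasted 3 days for all but the shLacZ cells, and RNA was taken 2 days after plating. The labels do not say that the arrays of a hairpin came from separate cultures or whether shGFP1 and shGFP2 are 2 hairpins, and they were taken as 2 arrays of 1. The p-values therefore measure only the spread between these samples, which may be technical.

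Siva1 encodes a small protein that was found through its binding to the tail of the death receptor CD27 and is known as a transcriptional target of p53 and E2F1. It has been described as promoting apoptosis, and also as restraining p53, so its loss in a tumour cell is not simply the loss of a death signal. The comparison asks which transcripts of a lung cancer line change when Siva is depleted.

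Values are log2 of the processed spot signal less the 75th percentile of the array, so a value of 0 is a probe as bright as that percentile. That percentile, here called brightness, ran from 499 to 964 intensity units on shSiva arrays and from 428 to 895 on control arrays, a range of 2.25-fold over the 8 arrays. The dimmest were the 2 shGFP arrays, at 428 and 457, and the brightest were shSiva1 replicate 1, at 964, and shLacZ replicate 1, at 895. The share of spots well above background ran from 49.0% to 57.9%, and 0 were saturated. The shSiva arrays shared 1 slide and the control arrays a second, and slide and vector cannot be told apart from the Siva hairpins. Of the epithelial markers, the keratin genes Krt8, Krt18 and Krt19 and the junction genes Cdh1 and Cldn7 were well above background on all 8 arrays. Epcam was on 7 and dim, with means of -3.50 in shSiva cells and -4.38 in control cells. Of the lung markers, Nkx2-1, Sftpc and Napsa were on none, Scgb1a1 on 4 and Sftpb on 7, whereas the gut transcription factor genes Hnf4a and Cdx2 and the gut genes Lgals4, Vil1 and Cdh17 were on all 8. Of the other cell types checked, the fibroblast genes Pdgfra, Pdgfrb and Dcn, the endothelial gene Cdh5, the macrophage gene Cd68 and the globin gene Hbb-bs were on none. The T cell gene Cd3e, the endothelial genes Pecam1 and Kdr and the globin gene Hba-a1 were on all 8, the macrophage gene Adgre1 was on 4, the leukocyte gene Ptprc on 3, and the fibroblast gene Col1a1 on 2 shSiva arrays and 0 control arrays.

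The probe that represents Siva1 is listed on mouse chromosome 12 from 113885242 to 113886093 of the mm9 build. Its 60 bases are spread over 852 bases of the genome, so the sequence spans an intron and reads spliced RNA. It is shown because it gives the Siva1 values of the fit:
Siva1 probe: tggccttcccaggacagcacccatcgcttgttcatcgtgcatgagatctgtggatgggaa

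Siva1 read 2.30 and 3.15 on shSiva1 arrays and 3.45 and 4.09 on shSiva2 arrays, against 6.47 and 6.49 on shGFP arrays and 5.27 and 6.0 on shLacZ arrays. Every shSiva array lay below every control array. Siva1 fell by 2.81 (SE 0.41, limma adjusted p = 0.0113). The level left was 14.3% of control, 9.92% with shSiva1 and 20.5% with shSiva2. The other Siva1 probe, on chromosome 12 from 113887275 to 113887334, averaged 3.24 ± 0.70 in shSiva cells and 5.83 ± 0.52 in control cells (SD, n = 4 each), with 16.6% left. shSiva2 minus shSiva1 was 1.04 and did not pass the test (limma adjusted p = 0.171). With the arrays of a hairpin as a random block Siva1 no longer passed (limma adjusted p = 0.0512), and against shLacZ alone it did not pass (limma adjusted p = 0.138). In LSZ2 Siva1 changed by -2.18, and the difference between lines, -0.63 (95% interval -1.74 to 0.48), did not pass (limma adjusted p = 0.893).

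**Figure D1:**
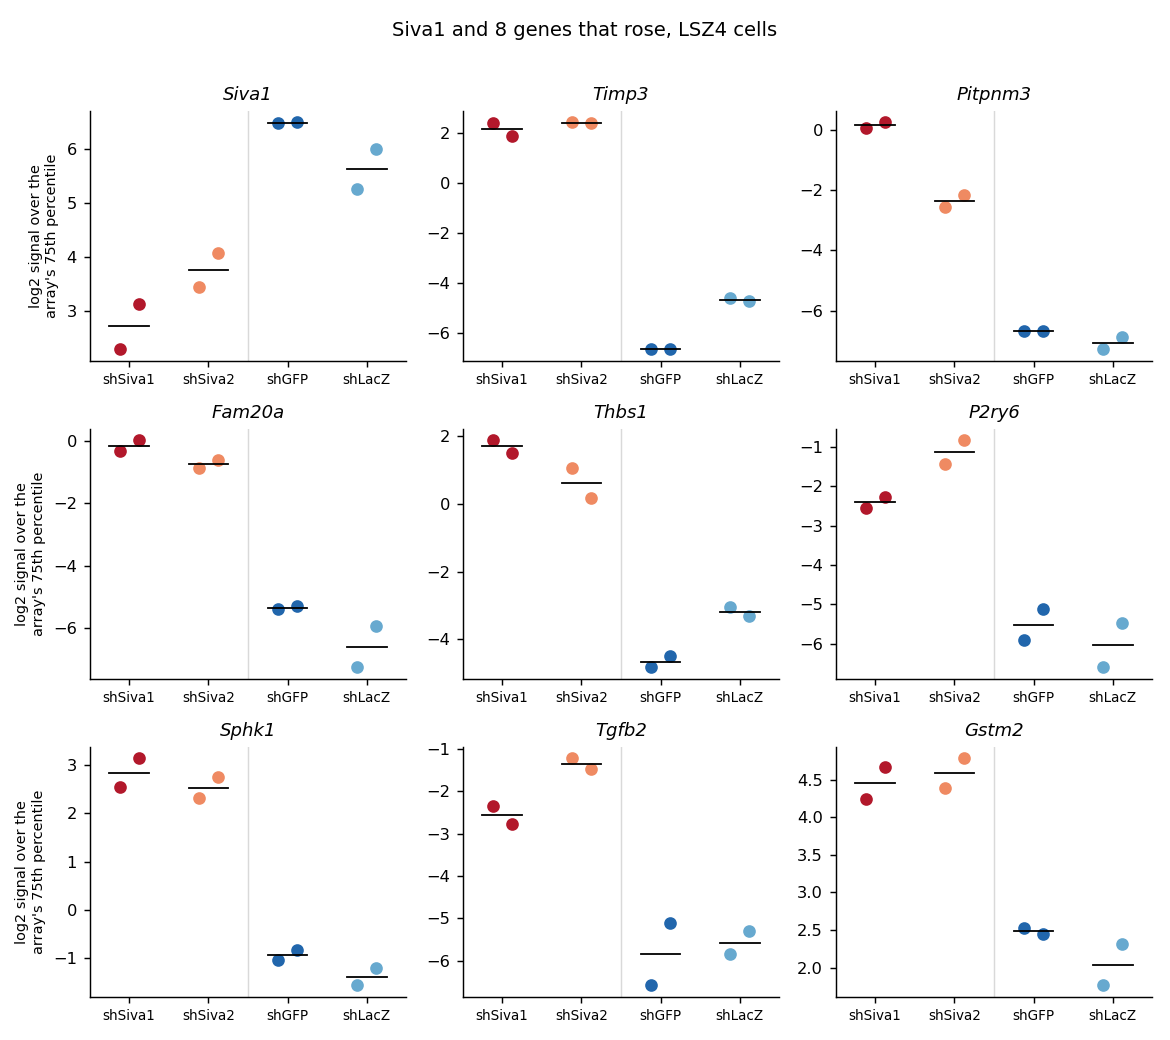
Values of Siva1 and of 8 genes that rose, in log2 signal over the 75th percentile of the array, on the 2 arrays of each hairpin (points) with the hairpin mean (line). Every shSiva point of Siva1 lies below every control point, and every shSiva point of the 8 other genes lies above every control point.

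Of 20777 genes tested, 204 passed the test in LSZ4 (0.982%), 170 higher (0.818%) and 34 lower (0.164%). All 204 changed at least 2-fold, 40 of the higher ones at least 8-fold and 11 of the lower ones at least 4-fold. Arms that did not overlap were found for 7.4% of all genes tested, 3.38% higher and 4.02% lower, and for 203 of the 204 called. Of the 170 that rose, 103 were above background on all 4 control arrays and 41 on none, and those 41 passed the filter on dim probes only through the shSiva arrays. By quartile of mean level, from dim to bright, 76, 61, 29 and 4 genes rose. The median of all genes changed by -0.20, and by -0.05 with quantile normalization, so gene lists below are read against it. Called members of a list stand beside the 0.818% of all genes called higher and the 0.164% called lower. The lists were chosen with earlier results of these data known.

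The number called depended on how the spread was counted and on single arrays. With the arrays of a hairpin as a random block 57 genes passed, 56 higher and 1 lower. With array brightness as a covariate 2316 passed, of which 35.2% were higher, against 83.3% as first fitted. Leaving out shLacZ replicate 1 gave 530 calls, 46.4% of them higher. Leaving out shGFP replicate 1, shGFP replicate 2, shLacZ replicate 2 or shSiva1 replicate 2 gave 89, 120, 83 and 133 calls. Leaving out shSiva1 replicate 1, the brightest array, gave 150 calls, 17 of them lower, against 34 lower as first fitted. The part of brightness in the number of lower calls was not tested. No gene named by rule for this comparison changed direction under any alternative tried. Timp3, Pitpnm3, Fam20a, Thbs1, P2ry6, Sphk1, Tgfb2 and Gstm2 kept their calls in every alternative that tested them. Of these genes, only Sphk1 and Gstm2 could be tested with signal above background required on all arrays. Pitpnm3, Fam20a, P2ry6 and Tgfb2 passed the filter on dim probes only through the shSiva arrays.

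**Figure D2:**
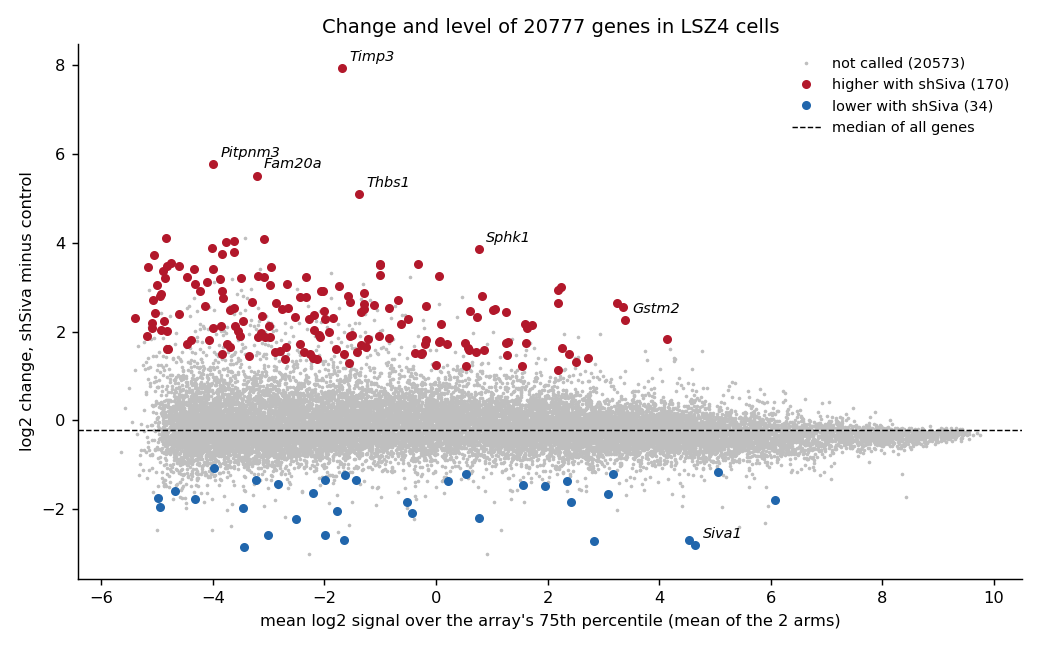
Change between the arms (shSiva minus control, log2) of each of the 20777 genes against its mean level, with the 170 higher and 34 lower calls coloured and the median of all genes as a dashed line. The calls that rose lie mostly on the dim side, with 4 in the brightest quartile, where the median change was -0.31.

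Several genes of the extracellular matrix rose. Timp3, a matrix-bound inhibitor of metalloproteinases, read 2.40 and 1.89 with shSiva1 and 2.43 and 2.38 with shSiva2, against -6.64 and -6.65 with shGFP and -4.61 and -4.72 with shLacZ. The shSiva values lay close together, shGFP minus shLacZ was -1.98, and 1 of 4 control arrays was well above background. Timp3 rose by 7.93 (SE 0.49, limma adjusted p = 0.000181). Thbs1, the matrix glycoprotein thrombospondin that can activate latent TGF-beta, read 1.88 and 1.52 with shSiva1 and 1.07 and 0.18 with shSiva2, against -4.83 and -4.51 with shGFP and -3.05 and -3.32 with shLacZ. The arms did not overlap, and Thbs1 rose by 5.09 (SE 0.47, limma adjusted p = 0.000736) with 2 of 4 control arrays above background. Thsd4, which binds fibrillin in the matrix, ran from -3.17 to -2.75 in shSiva cells and from -7.16 to -5.79 in control cells. It was on no control array above background and was at least 3.49-fold higher (limma adjusted p = 0.000405). Fn1, fibronectin, rose by 2.65 (SE 0.52, limma adjusted p = 0.0449), at 5.41 and 5.87 with shSiva1 but 3.53 and 3.5 with shSiva2, against 1.93 and 2.16 with shGFP and 1.47 and 2.15 with shLacZ. Of 29 mesenchymal and matrix genes tested 3 rose (Timp3, Thbs1 and Fn1) and 0 fell, where 0.818% of all genes tested rose. The median of that list lay 0.40 above all genes, 0.94 with shSiva1 alone and 0.12 with shSiva2 alone. The collagen genes Col4a1, Col1a2 and Col6a1 read -0.33, -0.23 and 0.35, none of them called. Fn1 was no longer called without any 1 of 6 of the 8 arrays.

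Sphk1, Tgfb2, P2ry6 and Fam20a, of other roles, also had large rises. Sphk1, the kinase that makes sphingosine 1-phosphate, read 2.55 and 3.14 with shSiva1 and 2.31 and 2.75 with shSiva2, against -1.05 and -0.83 with shGFP and -1.57 and -1.20 with shLacZ. It was above background on all 8 arrays, its 4 shSiva values stood together, and it rose 14.4-fold (log2 change 3.85, SE 0.26, limma adjusted p = 0.00023). Its probe is listed on chromosome 11 from 116397908 to 116397967. Tgfb2, a TGF-beta ligand, read -2.34 and -2.76 with shSiva1 and -1.23 and -1.48 with shSiva2, against -6.58 and -5.10 with shGFP and -5.85 and -5.30 with shLacZ. No control array was above background, so its rise is at least 7.08-fold (limma adjusted p = 0.00245). P2ry6, a receptor for the nucleotide UDP, ran from -2.54 to -0.83 in shSiva cells and from -6.61 to -5.11 in control cells, at least 8.07-fold higher (limma adjusted p = 0.00188). Fam20a, a secreted pseudokinase with a role in enamel, read -0.34 and 0.01 with shSiva1 and -0.88 and -0.61 with shSiva2, against -5.40 and -5.28 with shGFP and -7.25 and -5.94 with shLacZ. Fam20a was at least 20.0-fold higher (limma adjusted p = 0.000399).

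Several rises were of unequal size with the 2 Siva hairpins. Pitpnm3, of a family of phosphatidylinositol transfer proteins, read 0.06 and 0.25 with shSiva1 and -2.57 and -2.18 with shSiva2, against -6.67 and -6.69 with shGFP and -7.29 and -6.88 with shLacZ. Pitpnm3 was at least 12.7-fold higher (limma adjusted p = 0.0016), and shSiva2 minus shSiva1 was -2.53 (limma adjusted p = 0.00114). Vasn, a membrane protein that binds TGF-beta, Pla2g7, the enzyme that breaks down platelet-activating factor, and Mcpt2, a mast cell protease, were on no control array above background. Vasn was at least 13.0-fold, Pla2g7 at least 4.0-fold and Mcpt2 at least 6.51-fold higher, with shSiva2 minus shSiva1 at -3.08, -2.65 and -2.45 (limma adjusted p = 0.000602, 0.00139 and 0.00636). Adgrg6, an adhesion receptor needed for myelination, rose by 3.80 (SE 0.61, limma adjusted p = 0.0159), with 1 of 4 control arrays above background. Its shSiva2 minus shSiva1 was -2.02 and did not pass (limma adjusted p = 0.0521). Car12, a membrane carbonic anhydrase, was on no control array above background and at least 10.65-fold higher, but its spread between the Siva hairpins was wide, at 1.13 and 0.63 with shSiva1 and -3.52 and -3.69 with shSiva2, and it did not pass (limma adjusted p = 0.116). Pla2g7, Mcpt2, Vasn and Adgrg6 lost their calls when 1, 2, 4 and 4 single arrays were left out in turn, shLacZ replicate 2 among them each time.

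The falls were smaller than the rises. Aass, the first enzyme of lysine breakdown, read -3.58 and -3.67 with shSiva1 and -3.41 and -3.80 with shSiva2, against -1.40 and -1.65 with shGFP and -0.80 and -1.75 with shLacZ. Both hairpins gave nearly the same level, and Aass fell by 2.21 (SE 0.26, limma adjusted p = 0.00325). Sgk2, a serine/threonine kinase, fell by 2.20 (SE 0.30, limma adjusted p = 0.00813), and Hr, a nuclear corepressor active in hair follicles, by 2.09 (SE 0.33, limma adjusted p = 0.0151). Gldc, the decarboxylase of the glycine cleavage system, averaged -1.43 ± 0.37 in shSiva cells and 0.40 ± 0.30 in control cells (SD, n = 4 each), and it fell by 1.83 (SE 0.27, limma adjusted p = 0.0113). Ffar4, a cell surface fatty acid receptor, read -4.09 and -3.93 with shSiva1 and -1.78 and -2.15 with shSiva2, against 0.15 and 0.17 with shGFP and -0.87 and -0.69 with shLacZ. Ffar4 fell by 2.68 (SE 0.53, limma adjusted p = 0.0458), more with shSiva1 than with shSiva2 (shSiva2 minus shSiva1 2.04, limma adjusted p = 0.00239).

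Epithelial and transport genes were also among the falls. Cldn3, a tight junction protein, averaged 1.51 ± 0.44 in shSiva cells and 3.34 ± 0.58 in control cells, and the epithelial S100 protein gene S100a14 averaged 5.18 ± 0.44 and 6.98 ± 0.59 (SD, n = 4 each). Cldn3 and S100a14 fell by 1.83 and 1.80 (limma adjusted p = 0.0305 and 0.0343). Of 32 epithelial genes tested, 0 rose and Cldn3 alone fell, and the list's median lay 0.03 from that of all genes. Slc12a7, a potassium chloride cotransporter, and Pmp22, a membrane protein of myelin, fell by 1.65 and 1.48 (limma adjusted p = 0.0359 and 0.034), and Zbtb32, a zinc finger repressor, by 2.03 (limma adjusted p = 0.0225). The other Pmp22 probe read -1.44 and did not pass in a fit of all probes (limma adjusted p = 0.0584). Vmn2r58, of a vomeronasal receptor family with many similar copies, was on no shSiva array above background and at least 2.16-fold lower (limma adjusted p = 0.022). Adamts17, a metalloproteinase of the matrix, was likewise at least 2.16-fold lower and did not pass (limma adjusted p = 0.167). Of the falls besides Siva1, Aass and Sgk2 kept their calls when any single array was left out, Gldc lost its call without shLacZ replicate 2, Hr without that array or either shGFP array, and Ffar4, Zbtb32, Vmn2r58, Cldn3, S100a14, Slc12a7 and Pmp22 without any of 5 to 7 arrays. Aass was the only one of the falls named here still called with the hairpin as a random block (limma adjusted p = 0.0373).

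Genes of antigen processing rose among those that interferon induces. Psmb9 and Psmb8 are subunits of the immunoproteasome, which cuts proteins into peptides, and Tap2 is part of the transporter that carries the peptides to MHC class I. Tap2 read 2.02 and 2.63 with shSiva1 and 2.94 and 3.07 with shSiva2, against 1.07 and 0.99 with shGFP and -0.02 and 0.32 with shLacZ. The arms did not overlap, and Tap2 rose by 2.08 (SE 0.33, limma adjusted p = 0.0153). Psmb9 ran from -2.26 to -1.71 in shSiva cells and from -4.63 to -3.52 in control cells, a rise of 1.89 (SE 0.29, limma adjusted p = 0.0128). Psmb8 was on no control array above background and at least 2.43-fold higher (limma adjusted p = 0.0153). Of 28 interferon-stimulated genes tested 3 rose and 0 fell, where 0.818% of all genes tested rose. The list's median lay 0.65 above all genes. Of the 28, 2 were above background on every array of 1 arm and on no array of the other, Psmb8 among them. Such genes passed the filter on dim probes only through the higher arm, which bears on the count and the median. The antiviral GTPase gene Mx1 read 1.68 and Tap1, the partner of Tap2 in the transporter, 1.27, neither called (limma adjusted p = 0.0512 and 0.158). The transcription factor genes Irf9, Stat2 and Irf7 read -0.04, 0.01 and 0.14. Without shLacZ replicate 2 none of the 28 passed, and with the hairpin as a random block none did.

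NF-kB is a transcription factor family that stimulates inflammatory genes, and Tnfaip3 is one of its targets and an inhibitor of its signalling. Tnfaip3 read 1.17 and 1.33 with shSiva1 and 1.77 and 1.65 with shSiva2, against -0.30 and -0.12 with shGFP and 0.09 and 0.09 with shLacZ. It was above background on all 8 arrays and rose 2.91-fold (log2 change 1.54, SE 0.23, limma adjusted p = 0.0128). Vcam1, an adhesion molecule for leukocytes, read 4.27 and 3.95 with shSiva1 and 3.16 and 2.64 with shSiva2, against 0.47 and 0.29 with shGFP and 1.5 and 1.16 with shLacZ. Vcam1 rose 6.28-fold (log2 change 2.65, SE 0.40, limma adjusted p = 0.0132), but its other probe read 1.82 and did not pass in a fit of all probes (limma adjusted p = 0.118). Cxcl5, a chemokine for neutrophils, rose by 3.40 (SE 0.62, limma adjusted p = 0.0294), with 1 of 4 control arrays above background. Of 24 NF-kB targets tested 3 rose and 0 fell, where 0.818% of all genes tested rose. Of the 24, 1 passed the filter on dim probes only through 1 arm. The list's median lay 0.40 above all genes, 0.52 with shSiva1 alone and 0.20 with shSiva2 alone. Other targets read lower, among them the adhesion molecule gene Icam1 at -1.10 and the complement gene C3 at -1.13, and Nfkbia, the inhibitor that NF-kB itself induces, read 0.15, none of them called. Leaving out shGFP replicate 1 left 0 of the 24 called.

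Of the 3 NF-kB targets that rose, 1 had an upstream sequence in the RefSeq promoter table of the GRCm38.p6 build. The 250 bases before the start of Tnfaip3 lie on the minus strand of chromosome 10, at chr10:19015411-19015660 of GRCm38.p6, and are given 5′ to 3′ because the rise of Tnfaip3 was shared by both Siva hairpins. Capitals mark the 1 match to the NF-kB motif GGGNNNTTCC, searched on both strands:
Tnfaip3 upstream: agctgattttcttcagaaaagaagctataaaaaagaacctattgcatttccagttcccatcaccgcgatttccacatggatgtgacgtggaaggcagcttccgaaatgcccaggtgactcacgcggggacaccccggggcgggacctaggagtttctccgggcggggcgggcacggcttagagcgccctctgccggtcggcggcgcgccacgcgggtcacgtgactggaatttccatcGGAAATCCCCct

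The same motif was found in 4.60% of 27025 upstream sequences, in 5.05% of the 99 genes that rose and have one, and in 0% of the 15 that fell. It is a description of these letters and was looked for after the values were seen.

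In the list of p53 targets, the group to which Siva1 belongs, Siva1 was the only one of 35 tested that passed. Gadd45a, also known as a p53 target, was not on the list. It was above background on all 4 arrays of each arm and rose by 2.17 (SE 0.26, limma adjusted p = 0.00351). The list's median lay 0.44 above that of all genes. Trp53inp1, a stress-response gene, read 2.58, the sulfatase gene Sulf2 2.16 and the death receptor gene Fas 2.10, none of them called (limma adjusted p = 0.0660, 0.0855 and 0.124). Mdm2, which degrades p53, read 0.29, the cell cycle inhibitor gene Cdkn1a 0.43 and the death genes Bax and Bbc3 -0.15 and 0.37, none of them called. On single arrays the level of the list ran from 0.28 to 0.65 in shSiva cells and from -0.04 to 0.08 in control cells, relative to the control mean and to all genes on that array. Of 34 genes of the Bcl-2 family, the caspases and the death receptors 0 passed, and of 16 Siva1 partners and p53 circuit genes 0 passed, among them Trp53 itself at -0.41.

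Lists for growth lay lower than all genes without a called member. The median of 37 ribosome biogenesis genes lay 0.38 below that of all genes and the median of 42 DNA replication genes 0.26 below, and in neither did a gene pass. Ribosome biogenesis genes such as Rrp12, Nolc1 and Fbl read -1.07, -0.78 and -0.62, and replication genes such as Mcm5, Cdt1 and Pcna read -0.79, -0.82 and -0.41. Per array the ribosome list ran from -0.67 to -0.22 in shSiva cells and from -0.09 to 0.05 in control cells, and its lowest value was on the brightest shSiva array. The mitosis list read 0.91 on shLacZ replicate 1, the brightest control array, against -0.43 to -0.05 on the other control arrays and -0.39 to 0.09 on shSiva arrays. Its shift from all genes was -0.10, and 0.18 against shGFP alone and -0.43 against shLacZ alone. Without shLacZ replicate 1 the shift was 0.05, and 0 of its genes rose and 2 fell. Brightness moved with these values, and its part in them was not tested.

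**Figure D3:**
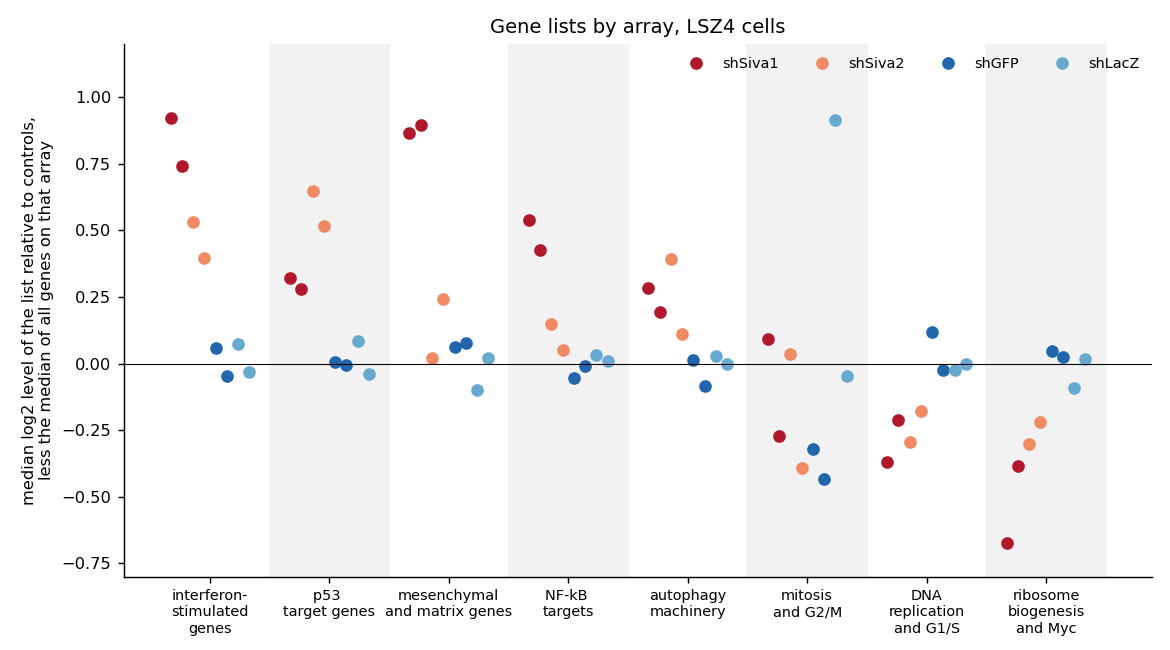
Level of 8 gene lists on each of the 8 arrays, as the median log2 level of the members relative to the control mean, less the same median over all genes on that array. Interferon-stimulated and p53 target genes lie higher on all 4 shSiva arrays (0.40 to 0.92 and 0.28 to 0.65), the mesenchymal list lies highest with shSiva1 (0.87 and 0.90), and the mitosis list stands out on 1 shLacZ array (0.91).

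Single genes stood out in other lists. Gstm2, a glutathione transferase and NRF2 target, read 4.25 and 4.67 with shSiva1 and 4.39 and 4.78 with shSiva2, against 2.52 and 2.45 with shGFP and 1.76 and 2.31 with shLacZ. It was bright on every array and rose 4.80-fold (log2 change 2.26, SE 0.25, limma adjusted p = 0.00245), the only one of 33 NRF2 targets tested that passed, and its 2 other probes rose by 2.20 and 2.29. Dusp1, a phosphatase that switches off MAP kinases, read -0.28 and -0.11 with shSiva1 and -0.58 and -0.23 with shSiva2, against -2.03 and -2.02 with shGFP and -2.45 and -2.02 with shLacZ. Dusp1 rose 3.56-fold (log2 change 1.83, SE 0.22, limma adjusted p = 0.00418), the only call of 23 immediate early genes, while Fos read -0.15. Wipi1, which acts at the forming autophagosome, averaged 1.15 ± 0.12 in shSiva cells and -0.08 ± 0.24 in control cells (SD, n = 4 each). Wipi1 rose by 1.22 (SE 0.22, limma adjusted p = 0.0274) and was the only call of 39 autophagy genes, whose median lay 0.31 above all genes, but it lost its call without any of 7 of the 8 arrays, and its other probe read 0.83 and did not pass in a fit of all probes (limma adjusted p = 0.159). Of 42 lysosomal genes 0 passed, with a median 0.28 above all genes. The mucin gene Muc5b, of 14 lung and airway markers, rose by 2.36 (SE 0.29, limma adjusted p = 0.00456), and Tff1, a trefoil peptide of the gastric mucosa and 1 of 19 gastrointestinal markers, rose by 3.20 (SE 0.52, limma adjusted p = 0.016). Spred3, an inhibitor of MAPK signalling, was on no control array above background and at least 1.47-fold higher (limma adjusted p = 0.0222), the only call of 28 MAPK output genes. In each of the other lists, which cover hypoxia, the unfolded protein response, ATF4 targets, the mTOR pathway, glycolysis, cholesterol and fatty acid metabolism, oxidative phosphorylation and markers of other cell types, 0 genes passed and the median lay from -0.17 to 0.20 of that of all genes. Tff1 lost its call without shSiva1 replicate 2 or shLacZ replicate 2, and Cxcl5 and Spred3 lost theirs without any of 5 and 4 arrays.

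The 2 Siva hairpins also differed from each other, by up to 8.14 on the log2 scale for Aqp1 among the genes named. shSiva2 against shSiva1 gave 1521 calls (7.32%), 729 higher (3.51%) and 792 lower (3.81%), in a fit of 4 hairpin means in which the spread is that between the 2 arrays of a hairpin. The same kind of spread gave 1176 calls for shSiva against control. Of the 1521 genes, 148 had both Siva hairpins beyond every control array on the same side and 456 had them on opposite sides. Another 545 had shSiva1 alone beyond every control array, 331 had shSiva2 alone and 40 had neither. Choosing genes by a difference between the hairpins favours opposite sides, and the shares over all genes were not counted. Aqp1, a water channel, read -3.04 and -2.01 with shSiva2 and 5.33 and 5.90 with shSiva1, with controls between, at 2.52 and 2.60 for shGFP and 1.25 and 2.02 for shLacZ. shSiva2 lay 8.14 below shSiva1 for Aqp1 (limma adjusted p = 3.33e-05), while the mean of both hairpins differed from control by -0.55. Aqp8, another water channel, read 5.73 and 5.86 with shSiva2 and -1.00 and -0.29 with shSiva1, against 5.18 and 4.79 with shGFP and 3.31 and 3.69 with shLacZ. Here shSiva2 lay 6.44 above shSiva1 (limma adjusted p = 3.33e-05).

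The other genes of largest difference between the hairpins had the same form. Degs2, a sphingolipid hydroxylase, Depp1, a target of FOXO factors, and Krt4, a keratin of stratified epithelium, were 7.44, 6.61 and 6.0 higher with shSiva2 than with shSiva1 (limma adjusted p = 2.27e-05, 3.36e-05 and 3.36e-05). Smoc2, a matricellular protein, Klrc1, an inhibitory receptor of natural killer cells, and Adgrg1, an adhesion receptor, were on neither shSiva2 array above background. Smoc2, Klrc1 and Adgrg1 were at least 198-fold, 102-fold and 66.2-fold lower with shSiva2 than with shSiva1 (limma adjusted p = 2.45e-05, 2.45e-05 and 7.49e-05). All 8 of these genes kept their call with each array of the Siva hairpins left out, while the count ran from 591 to 1149 (827 without shSiva1 replicate 1, 701 without shSiva2 replicate 1 and 591 without shSiva2 replicate 2).

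**Figure D4:**
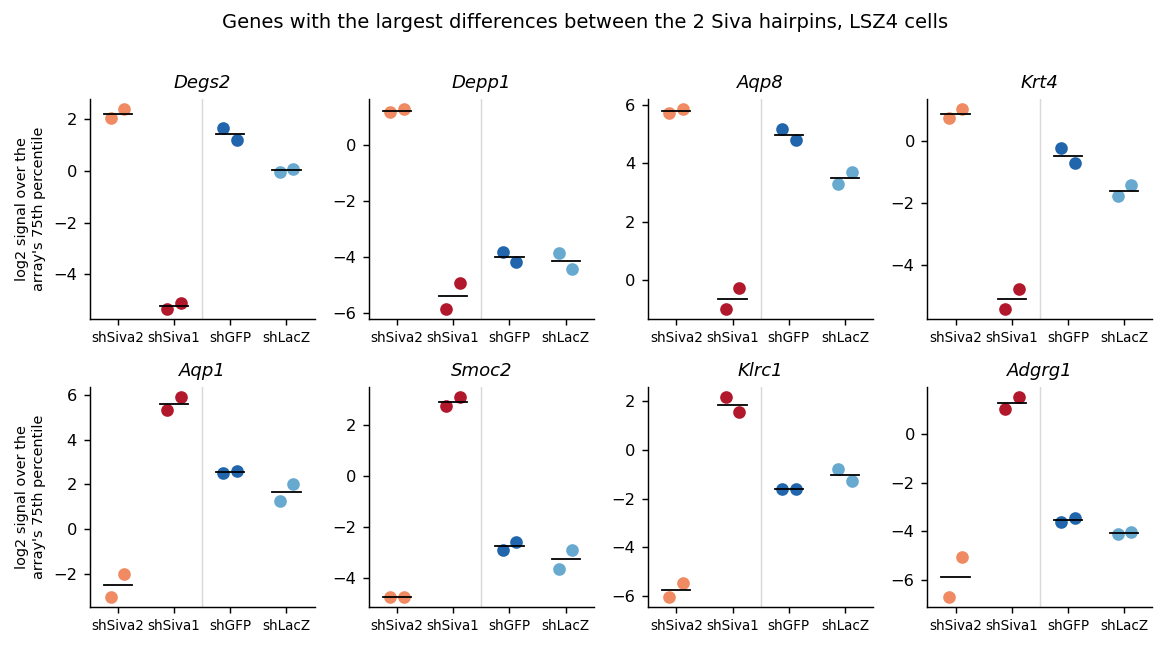
Values of the 8 genes with the largest differences between the Siva hairpins, in log2 signal over the 75th percentile of the array, on the 2 arrays of each hairpin (points) with the hairpin mean (line). Control arrays lie between the Siva hairpins in each panel, nearer to the mean of shSiva2 for Degs2, Aqp8, Krt4, Smoc2 and Adgrg1.

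Between the controls, shGFP against shLacZ gave 1 call of 20777 genes (0.00481%), a probe named only by an identifier and lower with shGFP. At an unadjusted p under 0.05 there were 2758 genes (13.3%), near the 2735 (13.2%) of shSiva against control. The count of calls hung on the model, for with the replicate number as a block 9901 genes passed. No label ties same-numbered arrays to a shared source, so 1 call does not show that the controls were alike. The median of all genes was 0.40 higher with shGFP than with shLacZ, and 0.64 higher in the brightest quartile of genes. shLacZ cells also had no puromycin, so hairpin and selection cannot be told apart.

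In the comparison of lines, 0 of 22908 genes passed for the shSiva effect in LSZ4 minus that in LSZ2 by limma, with 524 at an unadjusted p under 0.05 (2.29%) and a lowest adjusted p of 0.115. That lowest value was shared by Thsd4, Ptprf, Slc39a4 and Rapgef3, all called in LSZ4. Ptprf, Slc39a4 and Rapgef3 were above background on all 4 arrays of each LSZ4 arm. Their rises were larger in LSZ4 than in LSZ2 by 2.35, 1.96 and 1.84, differences that did not pass. No LSZ4 control array measured Thsd4 above background, so the size of its difference is not given. Muc5b, Tff1 and Cxcl5 changed by 2.36, 3.20 and 3.40 in LSZ4 and by 0.11, 0.31 and 0.37 in LSZ2 (limma adjusted p = 0.305, 0.893 and 0.893 for the differences), with 3, 1 and 1 of the 4 LSZ4 control arrays above background. Gstm2 changed by 2.26 in LSZ4 and 2.38 in LSZ2, with a 95% interval of the difference from -0.79 to 0.56. In LSZ2 215 genes passed in the fit of 15 arrays (0.939%), 174 higher (0.76%) and 41 lower (0.179%), and 2347 had an unadjusted p under 0.05 (10.2%). LSZ4 gave 1045 calls with all 15 arrays in the fit, and the 204 came from its own 8. Of the 204 genes called in LSZ4, 202 had the same sign in LSZ2, 88 were called there too and 181 had the larger change in LSZ4, the line that chose them. The lines share slides, vectors and hairpins but no arrays.

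**Figure D5:**
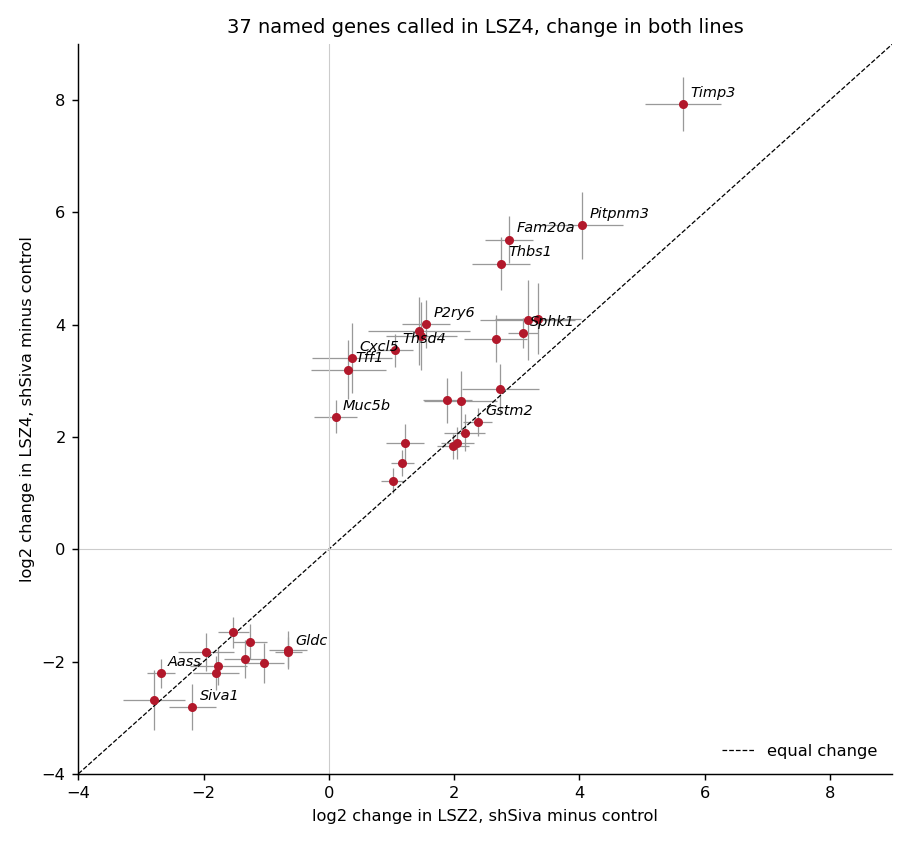
Change (shSiva minus control, log2, with SE of the fit) of the 37 genes named by rule and called in LSZ4, in LSZ4 (vertical) against LSZ2 (horizontal), with equal change as a dashed line. The genes were chosen on LSZ4, Timp3 is highest in both lines (7.93 in LSZ4 and 5.65 in LSZ2), and Muc5b, Tff1 and Cxcl5 lie near 0 in LSZ2. Genes not above background in 1 arm are drawn at their fitted change, which is no measured size.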

How the data were processed

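Each array has a file of spot intensity values, made by the authors in 1 colour with version 10.7.3.1 of Agilent's Feature Extraction, per the file headers. Its processed signal is background-subtracted and detrended within the array, per the file headers. The deposited value table holds log2 values, which matched the scanner values less the 75th percentile of the array and a probe's own median across all 15 arrays (lowest correlation of a column 0.9997, over 55610 probes). Its column medians ran from -0.26 to 0.53.

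Control and outlier spots were dropped, spots of a probe averaged, and log2 values reduced by the 75th percentile. Probes well above background on at least 4 of 8 arrays and missing on at most 2 were kept, 28543 of 55681. Each gene was read from its brightest probe. Symbols were updated through accessions for 26582 probes, and positions are mm9, per the file headers. limma 3.58.1 in R 4.3.3 (with data.table, version 1.17.8) gave all tests, with Benjamini-Hochberg adjustment over all genes and a threshold of 0.05. The arm fit used the 8 LSZ4 arrays, the hairpin fits 4 hairpin means, and the line fit all 15 (at least 4 above background and at most 3 missing). Where no array of a group was above background, folds are bounds, taken on each array from whichever was higher, the dim probe itself or the dimmest probe well above background. Precision is limited by how few arrays there are.

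Members, the 26 lists (758 of 864 entries tested) and the rules were chosen with earlier results of these data known. Genes named as risen or fallen are Siva1, the 12 largest rises and 12 largest falls with arms that do not overlap, up to 4 called members of a list, the 4 largest differences each way between hairpins and the 4 largest bounds each way. List members named without a call, and called genes named outside these rules, were picked after their values were seen. In simulated data the arm fit called 5, 32, 48 and 49 of 50 genes changed by 1, 2, 3 and 4 (log2). That fit held 20766 genes and gave 2 other calls. Whether the same shares hold on these arrays, where the 2 Siva hairpins differed from each other, was not tested.

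Alternatives were quantile and median scaling, normexp with an offset of 50, the value table, no filter on dim probes, signal above background on all arrays, the average over a gene's probes, a replicate block, brightness as a covariate, array weights, each array left out, and other uses of the hairpins and lines.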

Additional observations from a re-analysis of the deposited data

Results flagged for a closer look

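Dixon's test for 1 stray value was run on the arms of 4 arrays of the named genes, 94 groups in all, and 4 groups had an array far from the other 3. Chance gives about 1 in 20. In shSiva cells Timp3 read 1.89 on shSiva1 replicate 2, against 2.38 to 2.43 on the other arrays, and Pmp22 read 1.64 on that same array, against 1.03 to 1.13. In control cells Cxcl5 read -4.33 on shLacZ replicate 1, against -6.76 to -6.52, and Dusp1 read -2.45 there, against -2.03 to -2.02. shLacZ replicate 1 was also the brightest control array, and the part of brightness in these values was not tested.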

How the results depend on the processing

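For shSiva against control, first 204 calls, normexp background gave 103, a filter for signal above background on all arrays 127, brightness as a covariate 2316, array weights 6190 (1524 higher and 4666 lower, 24.6% higher), the hairpin as a random block 57, hairpin means with the spread within hairpins 1176, shSiva1 alone 838, shSiva2 alone 421, shGFP alone as control 111, shLacZ alone as control 48 and all 15 arrays 1045 (51.7% higher). Hairpin means gave 59.7% higher, and shSiva1 and shSiva2 alone 68.9% and 65.3%. Leaving out 1 array gave 83 to 530. Siva1 lost its call with the random block (-2.81) and against shLacZ alone (-2.39) and ran from -3.09 to -2.50 with 1 array left out. For shGFP against shLacZ, first 1 call, quantile normalization, normexp, the value table, no filter, the filter on all arrays, brightness and array weights each gave 0, and leaving out 1 array 0 to 9. For shSiva2 against shSiva1, first 1521 calls, quantile normalization gave 2414, normexp 873, brightness 5442, and leaving out 1 array 591 to 1149. For the difference of lines, first 0 calls, quantile normalization gave 4, brightness 17, array weights 4958, and leaving out 1 array 0 to 3. The cause was not tested. The hairpins share only the replicate numbers 1 and 2, and no label ties them to a shared source, while correlations of deviations between same-numbered arrays ran from 0.22 to 0.81. With the replicate number as a block there were 270 calls for shSiva against control, 9901 for shGFP against shLacZ, 5976 for shSiva2 against shSiva1 and 0 for the lines, and Siva1 was at -2.81. Of 36 called genes named by rule besides Siva1, 13 kept their call with any array left out and 8 in every setting that tested them. Only 19 of the 36 were tested with signal above background required on all arrays. Of 26 list shifts, 16 changed sign in some setting. Signal near background limits the genes with a bound.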

Other observations

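Some genes were singled out after their values were seen and are given as values only. Among mast cell proteases Mcpt1, Mcpt2, Mcpt4 and Mcpt8 rose in LSZ4, 4 of the 6 tested, where 0.818% of all genes tested rose. Mcpt2 was among the 6 only through the shSiva arrays. Mcpt8 read 4.57 and 4.89 with shSiva1 and 2.35 and 2.80 with shSiva2, against 0.64 and 0.88 with shGFP and 0.20 and 1.16 with shLacZ. Mcpt1 and Mcpt4 rose by 3.5 and 3.51 and Mcpt8 by 2.93 (limma adjusted p = 0.0146, 0.0121 and 0.0302), each more with shSiva1 than with shSiva2 (shSiva2 minus shSiva1 -2.35, -2.20 and -2.15). Mcpt1 and Mcpt4 had nearly the same values, 1.92 and 1.92 against 1.89 and 1.82 with shSiva1. With shSiva2 they read -0.48 and -0.38 against -0.37 and -0.32. The genes are related in sequence. Laid side by side without gaps, the probes of any pair shared at best 19 to 25 bases, scattered over overlaps of 50 to 59. Matches of a probe to the transcripts of the other genes were not tested. Of 6 mast cell markers, Kit, Cpa3, Fcer1a, Ms4a2 and Hdc were above background on none of the 8 arrays, and Gata2 was on 3 shSiva arrays and no control array. The tryptase genes Tpsab1 and Tpsb2 read -1.29 and -0.22, neither called.

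Of the 3 TGF-beta ligand genes, Tgfb3 rose by 3.28 (SE 0.33, limma adjusted p = 0.00146) beside Tgfb2, and Tgfb1 read 0.38 (limma adjusted p = 0.58). Tgfb3 ran from -0.05 to 1.30 in shSiva cells and from -2.97 to -2.44 in control cells. Cryab and Hspb2, small heat shock proteins encoded side by side, rose by 2.43 and 2.34 (limma adjusted p = 0.00289 and 0.02). Thsd1 and Spon2, with thrombospondin repeats like Thbs1 and Thsd4, also rose, Thsd1 by 2.79 and Spon2, on no control array above background, at least 5.29-fold. They were picked because they rose, and the other genes with such repeats were not counted. Adamts17, which also has them, did not pass (limma adjusted p = 0.167). Of 163 called genes with an ordinary symbol, 162 were placed on the RefSeq annotation. There 11 pairs lay next to each other or 1 gene apart among protein-coding genes, all 11 with the same sign where 144 of the 163 genes were higher. Among them were Cryab with Hspb2, Psmb8 with Tap2, Fn1 with Mreg, P2ry6 with Arhgef17 and 3 pairs of mast cell proteases on chromosome 14. How many such pairs an equal number of other genes would give was not counted, so the 11 are no result about position.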
